A study of Mus musculus with 103 samples.

Results

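The regions described here are 5895 distal SREBP1 peaks of mouse macrophages that shared no base with an LXR peak, out of 13984 SREBP1 peaks, or 42.2% of that list. A peak was counted as distal when its centre lay more than 1 kb from every transcript start in the deposited expression table, and as without LXR when it had no base in common with any of 40660 LXR peaks from the same kind of cells. The members were chosen by measured peak positions, those of the SREBP1 and the LXR list, so the split itself is a description and carries no test. Among the distal peaks, 69.7% were without LXR (5895 of 8462), which left 2567 distal peaks with LXR. Among the promoter peaks, within 1 kb of a start, 77.3% were without LXR (4269 of 5522).

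SREBP1, encoded by Srebf1, is a membrane-bound transcription factor that is cut free when sterols are low and then drives genes of fatty acid and cholesterol synthesis. LXR, the oxysterol receptor, binds DNA as a heterodimer with RXR, turns on genes of cholesterol export and also raises transcription of Srebf1 itself. In macrophages many distal regulatory elements are opened by lineage factors such as PU.1, and other factors then bind there.

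The study followed lipid metabolism and inflammation in macrophages over time. The cells were elicited with thioglycollate in the peritoneum of male C57BL/6 mice of 6 to 8 weeks, collected by lavage 3 to 4 days after the injection and kept without serum overnight. Both peak lists belong to samples labelled with 1 µM GW3965, a synthetic LXR agonist, for 18 h in the SREBP1 sample. The header of the LXR list names 5 h, and the treatment field of that sample reads as a control. The SREBP1 list is a combined one, and the samples pooled in it are not given. RNA came from cells given 100 ng/ml KLA, a lipid A that activates TLR4, for 1, 6, 12 or 24 h, and from untreated cells of the 1 to 12 h course and of the 24 h course, with 1 library each. No GW3965 was named for the RNA samples, so by their labels the binding and the RNA come from differently treated cells.

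Each factor has 1 peak list and each RNA condition 1 library, so no difference below has a replicate behind it and no p-value is given. The SREBP1 list rests on 24395376 tags and the LXR list on 7501248, with 1.75% of the SREBP1 tags and 17.85% of the LXR tags inside peaks. The input of the SREBP1 list was from untreated cells and that of the LXR list from cells given KLA for 24 h, so "without LXR" means that no peak was called at these depths against these inputs. The RNA libraries held 2205187 to 2674826 reads. All 7 macrophage markers were at or above 1 RPKM (reads per kilobase of transcript, adjusted for sequencing depth) in every library, with a summed level of 6406 to 11249 RPKM. The summed level was 39.5 to 122 RPKM for 5 neutrophil markers, with Mpo at 0, and 78.1 to 145 RPKM for 6 fibroblast and mesothelial markers. It was 4.45 to 6.38 RPKM for 6 lymphocyte markers, 0.281 to 0.798 RPKM for 3 mast cell markers, with Mcpt4 at 0, and 0 for the haemoglobin genes Hba-a1 and Hbb-b1. Both the neutrophil and the fibroblast sums were highest in the KLA 24 h library, and their part in the RNA results at that time was not tested.

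The members were mostly low peaks with a thin upper tail. Their median was 10.7 normalised tags (tags in the peak scaled to libraries of 1e+07 tags), against 12.3 in distal peaks with LXR. The middle range of the members ran from 9.02 to 13.1 tags and the 90th percentile was 15.6 tags, against 20.9 tags in distal peaks with LXR. A count of 20 tags or more was reached by 129 members, or 2.19%, against 290 distal peaks with LXR, or 11.3%. Of the members, 30.1% lay above the median of the distal peaks with LXR (95% exact binomial interval 28.9% to 31.3%, for counting error only). A median of 10.7 normalised tags stands for about 26.1 sequenced tags.

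The share of distal peaks without LXR depended on their height mainly at the top. It lay between 68.1% and 79.6% in the 8 lowest deciles of distal peaks by tag count. In the next decile it was 63.2%, and in the highest, with 16.8 tags or more, it was 42.0% (355 of 846 peaks, 38.6% to 45.4%). The other measures of height did not all run the same way. The fold over the input had a median of 12.53 in members, against 10.31 in distal peaks with LXR. Input tags had a median of 1 in both classes, with 0.5 as the lowest value recorded. This fold thus rests on very few input tags. The fold over the surrounding 10000 bases was nearly equal, with a median of 7.69 in members against 7.78 in distal peaks with LXR.

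**Figure D1:**
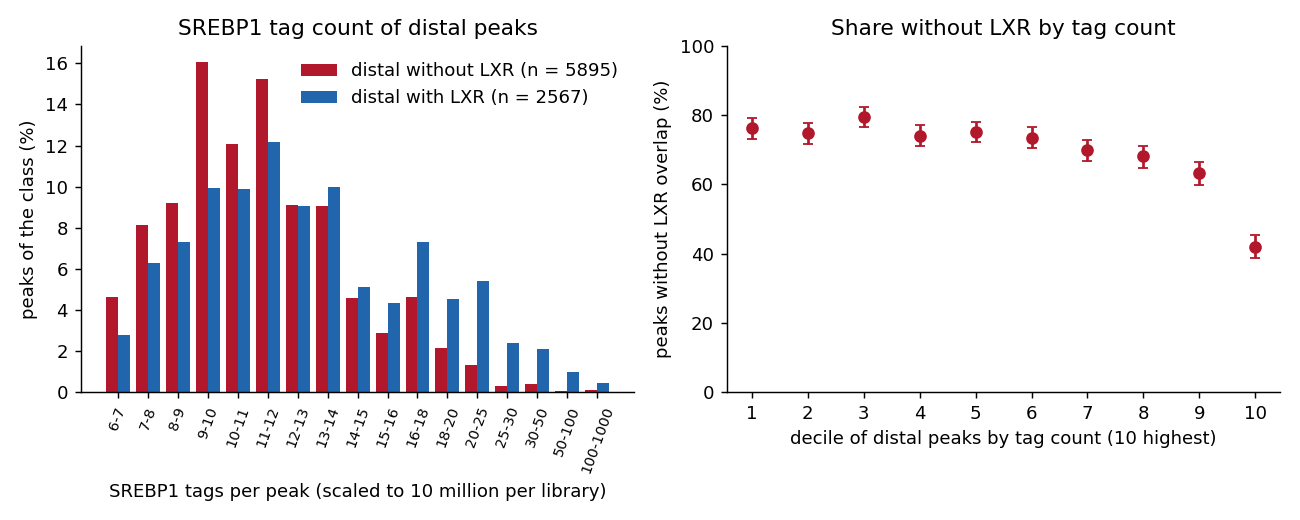
Left, percentage of distal SREBP1 peaks in each range of normalised tag count (tags scaled to 1e+07 per library), for 5895 peaks without LXR and 2567 with LXR. Right, percentage of distal peaks without LXR in each decile of tag count, with 95% exact binomial intervals for counting error; it falls to 42.0% in the highest decile.

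The 6 highest members stood apart from all others and lay in 1 gene. They occupied 27.5 kb of chromosome 15, inside Vdr, which encodes the vitamin D receptor, another nuclear receptor that pairs with RXR. In mm9 coordinates the highest was chr15:97687879-97688073 with 744.4 normalised tags, which is 69.6 times the median of the members. The next were chr15:97700071-97700265 with 480.8 tags, chr15:97697508-97697702 with 428.8 tags and chr15:97715206-97715400 with 412 tags. The other two were chr15:97707112-97707306 with 401.3 tags and chr15:97689477-97689671 with 336.5 tags. Across all 13984 SREBP1 peaks these 6 were exceeded by a single peak, at the promoter of Pgk1, which had 1226.1 tags and overlapped an LXR peak. The highest member outside Vdr had 116 tags.

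Those 6 peaks were 0.102% of the members and held 3.99% of the tags summed over all members. Without them the median of the members was the same, 10.7 tags. The input had 0.5 to 6 tags at these positions, where 0.5 is the lowest value recorded for any peak of the list. Within the same 27.5 kb there were 4 LXR peaks of 18.7 to 65.3 normalised tags, where the median of all LXR peaks was 28. The rule itself excludes overlap of the 6 peaks with LXR, and their gaps to the nearest LXR peak were 455 to 3952 bases. By the nearest-start rule, 4 of the 6 peaks were assigned to Hdac7, a class IIa histone deacetylase gene that neighbours Vdr, although all 6 lay inside Vdr.

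All 6 peak centres fell within coding exons of Vdr. The transcript NM_009504 (mm9 chr15:97684858-97738727, minus strand) spans 53869 bases in the files' build and the same length in the RefSeq annotation of GRCm38, from which the exons were taken as distances from the transcript start, with no coordinate carried between builds. The centres lay 23424, 31518, 38559, 41122, 49153 and 50751 bases from the start, in exons 3, 4, 5, 7, 8 and 10 of 10. Coding sequence makes up 2.36% of the transcript's span and exons 8.08%. The coding exons with no peak centre of their own, exons 6 and 9, ended or began 314 and 238 bases from the nearest of the 6 centres, and the non-coding exons 1 and 2 lay 23363 and 3541 bases away. A seventh SREBP1 peak, 419 bases from the Vdr start and therefore a promoter peak, had 14.8 tags.

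**Figure D2:**
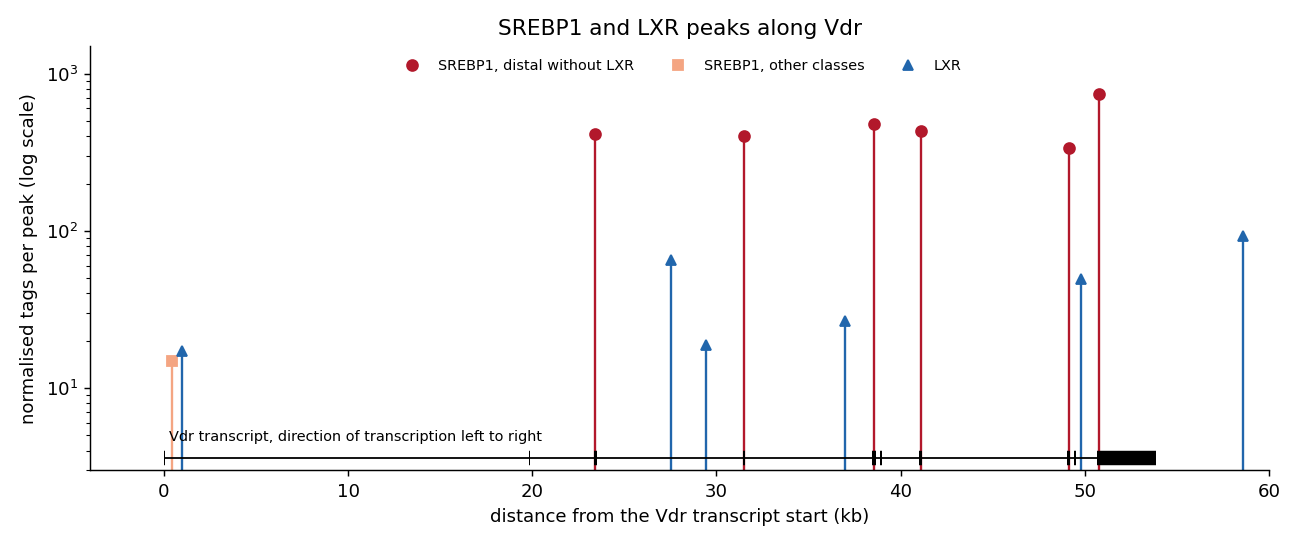
SREBP1 and LXR peaks along the Vdr transcript, by distance of the peak centre from the transcript start (kb, horizontal) and normalised tag count (log scale, vertical); the black line is the transcript and its thick parts the 10 exons. The 6 distal SREBP1 peaks without LXR reach 336.5 to 744.4 tags and stand on exons. Of the LXR peaks drawn, 4 lie among these 6 peaks, and the others lie nearer the transcript start or past its end.

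Little or no Vdr RNA was found in these cells. Vdr had 0.208 RPKM in untreated cells of the 1 to 12 h course, 0.0957 RPKM after 1 h of KLA and 0 RPKM after both 6 and 12 h, then 0.258 RPKM after 24 h of KLA against 0.266 RPKM in untreated cells of the 24 h course. These values stand for 3 reads or fewer in each library, so no fold is given. Hdac7 had 3.71, 2.75, 0.89 and 2.91 RPKM in untreated cells and after 1, 6 and 12 h of KLA, and 3.26 RPKM after 24 h of KLA against 2.86 RPKM in the untreated cells of that course. At 6 h it was 4.17-fold lower with KLA (95% exact conditional binomial interval 1.87 to 10.5, for counting error only), and at the other times the interval included 1.

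Of the next members, the highest were near genes of cytoskeleton, splicing and lipid binding. The peak of 116 tags, chr17:57231454-57231648, lay 4.35 kb upstream of Tubb4a, a tubulin gene that had 0 to 0.378 RPKM in the 6 libraries. It was 11.1 kb from another member of 25.4 tags, chr17:57242744-57242938, which lay 1.97 kb upstream of the cytokine gene Tnfsf9 (4-1BB ligand). The peaks of 90.6 and 42.2 tags at chr2:90955263-90955457 and chr2:90953455-90953649 were nearest to the start of Mybpc3, a muscle sarcomere gene with at most 0.914 RPKM. Both lay inside Spi1, which encodes the macrophage lineage factor PU.1. Then came chr4:124386299-124386493 with 80.8 tags, 5.71 kb upstream of the splicing factor gene Sf3a3, and chr3:10022565-10022759 with 77.9 tags, 10.1 kb downstream of the start of Fabp5. Fabp5 encodes a fatty acid binding protein of macrophages and also had a member of 24.6 tags, 1.05 kb from its start. From rank 11 on, no member exceeded 45.9 tags.

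The limits of the rule cut through similar peaks. Just beyond 1 kb were members at Sod2 (1001 bases from the start, 8.2 tags), Inpp5b (1001 bases, 12.7 tags) and Ascc3 (1002 bases, 11.5 tags). Just inside it, and so counted as promoter peaks without LXR, were peaks at Slc25a22 (1000 bases, 8.61 tags), Mir5133 (1000 bases, 13.5 tags) and Gpd1l (999 bases, 7.38 tags). On the LXR side, members at Kdm6b (16.8 tags) and Bin2 (11.5 tags) were 1 base away from an LXR peak. Peaks at Cradd (18 tags), Myo18a (10.2 tags) and Ston2 (8.61 tags) met an LXR peak at a single base and were counted as shared, as were 12 distal peaks in all.

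Members lay more often inside genes than distal peaks with LXR, and more often just beyond the 1 kb limit. The median distance to the nearest start was 17.5 kb for members and 19.0 kb for distal peaks with LXR, and 25.6% of members against 18.3% of distal peaks with LXR lay 1 to 5 kb from it. Most of that difference was in the first stretch, since 14.5% of members and 7.75% of distal peaks with LXR lay 1 to 2 kb from a start. Inside a transcript were 58.6% of members (57.4% to 59.9%) and 51.1% of distal peaks with LXR (49.2% to 53.1%). With the limit at 2 kb in place of 1 kb, 55.4% of 5039 distal peaks without LXR (54.0% to 56.8%) and 49.7% of 2368 with LXR (47.7% to 51.8%) were inside a transcript. The order of the distances turned at that limit, with a median of 23.1 kb without LXR and 21.6 kb with LXR. At the far end, 10.4% of members and 9.12% of distal peaks with LXR were over 100 kb from any start.

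Many members had an LXR peak nearby without touching it. The gap to the nearest LXR peak had a median of 2.36 kb and was at most 200 bases in 20.4% of members, at most 1 kb in 37.9% and at most 10 kb in 68.0%. In the remaining 1886 members, or 32.0%, the nearest LXR peak was over 10 kb away, and in 417 members, or 7.07%, there was none within 100 kb. Chromosome X held 33 members, or 0.560%, and the shares of the other SREBP1 peaks were also below that of the LXR list, at 0.312% of distal peaks with LXR, 0.937% of promoter peaks without LXR and 0.559% of those with LXR, against 1.64% of LXR peaks. Another SREBP1 peak lay within 10 kb of 35.8% of members and 40.2% of distal peaks with LXR.

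Members far from LXR differed little in height from those close to it. The median tag count was 11.1 where an LXR peak lay within 1 kb, 11.1 at 1 to 10 kb and 10.7 beyond 10 kb. A count of 20 tags or more was less common with distance, at 2.96%, 2.25% and 1.22% of members in the same order. The fold over the surrounding 10000 bases was higher with distance, with medians of 6.48, 7.03 and 10.89. The members beyond 10 kb were also the most remote from genes, with a median of 28.7 kb to the nearest start and 19.3% of them over 100 kb away.

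**Figure D3:**
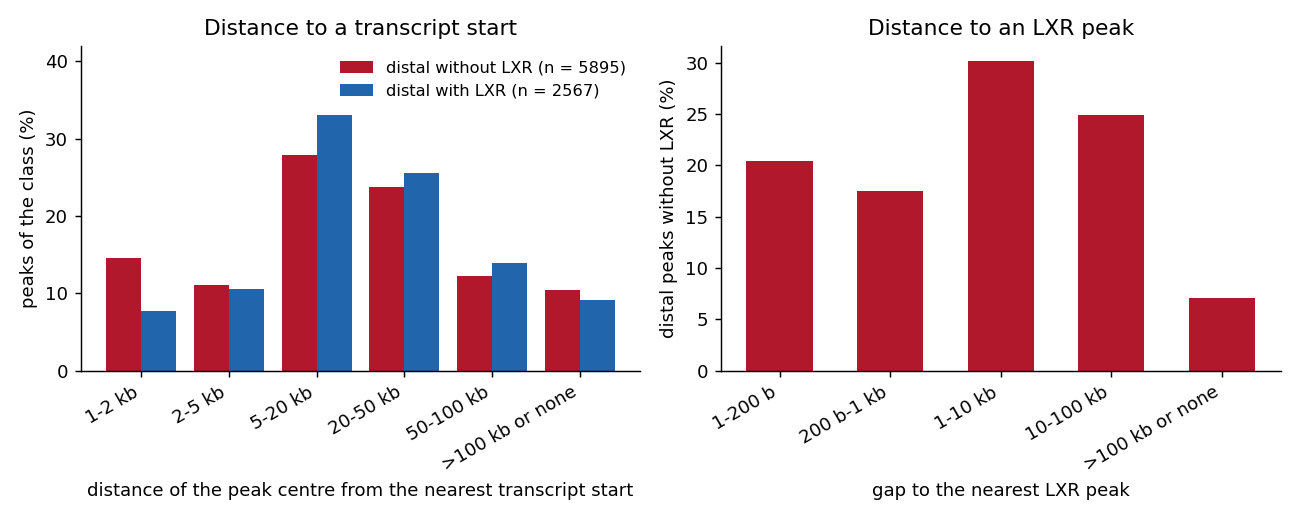
Left, percentage of distal SREBP1 peaks by distance of the peak centre from the nearest transcript start, for peaks without LXR and with LXR; the 1 to 2 kb range holds 14.5% against 7.75%. Right, percentage of the 5895 members by gap to the nearest LXR peak, of which 20.4% have an LXR peak within 200 bases and 7.07% none within 100 kb.

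Most members stood alone, but some genes gathered several. With members joined when less than 12.5 kb apart, 4634 (78.6%) were single and 96 clusters had 3 or more. The cluster with the most members was at Rxra, which encodes the RXRα partner of LXR and PPARγ. It had 7 members over 22.2 kb at chr2:27592951-27615195, with 29.9 tags in the highest and 164.4 tags in all. The 6 peaks inside Vdr made a second cluster, and 6 members stood near Mirlet7bhg, the host gene of let-7 miRNAs. Clusters of 5 were found at Atf3, a stress-induced transcription factor gene, at Rassf2, near Wasf2 and at the immediate early gene Egr3. At Abca1, the cholesterol exporter and a classical LXR target, 4 members lay within a stretch of 8.48 kb inside the gene.

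By nearest start the members were assigned to 4224 genes, which is 17.6% of the 24014 gene symbols in the table. A single member was assigned to 73.3% of these genes and 3 or more to 356 of them. Rxra and Foxp1 had 8 each, Zeb2 and Rreb1 7 each, and Atf3 and Abca1 6 each. Distal peaks with LXR were assigned to 23.0% of the 4224 genes and SREBP1 promoter peaks to 28.5%, and 56.2% had neither. All of the 6 members of Abca1 were 4.43 to 56.3 kb from its start, and the gene had no SREBP1 peak with LXR and no promoter peak. Its highest members, of 17.2 and 16.8 tags, nevertheless lay only 80 and 613 bases from an LXR peak.

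Among genes with measurable RNA (at least 1 RPKM in at least 2 libraries), 2789 of 10605 were nearest to a member, which is 26.3%. They had an SREBP1 promoter peak about as often as other such genes, 38.2% against 38.6% of all genes tested. Of the tested macrophage lineage factors and markers, 32 of 37 were nearest to a member, as were 10 of 18 LXR targets, 18 of 44 inflammatory genes and 8 of 20 genes of lipid droplets, fat oxidation and their nuclear receptors. The interferon response had 9 of 31, cholesterol synthesis and uptake 7 of 30 and fatty acid synthesis 5 of 20, which is near the share among all genes tested. The lists differ in gene length and in the space between genes, and their part in these shares was not tested.

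SREBP1 is known for driving genes of lipid synthesis. Those of the cholesterol list with a member included Cyp51, Dhcr7, Fdft1 and Mvk, which encode enzymes of cholesterol synthesis, the lysosomal cholesterol transporters Npc1 and Npc2, and Rnf145, a ubiquitin ligase gene. The peak of Mvk, the mevalonate kinase gene, had 13.5 tags at chr5:114911483-114911677, 17277 bases from the nearest LXR peak. Its fold was 24.9 over the surroundings and 6.67 over the input, where the medians of all members were 7.69 and 12.53. In the fatty acid list those with a member were Elovl5 (22.1 and 16 tags), Elovl6, Lpin1, Agpat3 and Acsl1. The peak of 22.1 tags at chr9:77760321-77760515 lay 4.75 kb upstream of Elovl5, a fatty acid elongase gene, and 360 bases from an LXR peak.

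RNA of the nearest genes was then compared between KLA-treated and untreated cells on the log2(RPKM + 1) scale, which understates changes of low genes. After 1 h of KLA, 132 of the 2789 genes (4.73%) were at least 2-fold higher, against 3.65% of all genes tested, and 87 (3.12%) at least 2-fold lower, against 4.09%. After 6 h, 327 (11.7%) were higher, against 9.35%, and 657 (23.6%) lower, against 22.4%. After 12 h, 264 (9.47%) were higher, against 8.88%, and 547 (19.6%) lower, against 16.3%. After 24 h, 291 (10.4%) were higher, against 9.98%, and 410 (14.7%) lower, against 10.6%. Shares of higher genes were thus near the background at 12 and 24 h, and shares of lower genes were above it at both times. Of the 2789 genes, 751 were also nearest to a distal peak with LXR. Among the other 2038, the share of lower genes was 20.6% at 6 h, 17.2% at 12 h and 11.6% at 24 h (10.3% to 13.1%), close to that of all genes tested. Between the 2 untreated libraries 1.72% of all genes tested were at least 2-fold higher and 2.42% lower in the 24 h course. In bulk RNA, fewer cells of a type and less RNA per cell cannot be told apart.

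The balance of higher and lower genes depended on scaling at 6 and 12 h. The median log2 ratio of all genes tested was -0.46 at 6 h and -0.32 at 12 h, and that of the nearest genes -0.40 and -0.35. With each comparison rescaled to a median of 0 over all genes, 500 nearest genes were higher and 317 lower at 6 h, and 380 were higher and 326 lower at 12 h. Over all genes tested the rescaled shares were 14.2% higher and 9.83% lower at 6 h, and 12.2% higher and 8.73% lower at 12 h.

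From 6 h of KLA on, genes near members with LXR close by passed the 2-fold limit more often than genes near members far from LXR, both downwards and upwards. After 6 h of KLA, 29.3% of 1313 genes nearest to a member with an LXR peak within 1 kb were at least 2-fold lower, and 17.8% of 886 genes nearest to a member over 10 kb from LXR, against 22.4% of all genes tested. At 24 h the shares were 18.6% (16.5% to 20.8%) and 11.2% (9.17% to 13.4%), against 10.6% of all genes tested. Of genes nearest to a distal peak with LXR, 31.2% were lower at 6 h and 20.4% at 24 h. The sets overlap, since 36.7% of the genes of members close to LXR and 19.2% of those of members far from it were also nearest to a distal peak with LXR. Without such genes the shares were 26.1% of 831 and 15.4% of 716 genes at 6 h, and 15.2% and 9.22% at 24 h. At 1 h, 6.47% of the genes of members close to LXR were at least 2-fold higher and 2.93% of those of members far from it, against 3.65% of all genes tested. The shares of higher genes were 12.9% and 9.93% at 6 h, against 9.35% of all genes tested. They were 10.7% and 7.22% at 12 h, against 8.88%, and 11.0% and 8.69% at 24 h, against 9.98%. For higher genes the intervals of the close and far sets overlapped at 6, 12 and 24 h. At 6 h they were 11.2% to 14.9% and 8.04% to 12.1%. No alternative was tried for higher genes by distance from LXR.

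For lower genes, the order of the 2 sets held at 6 and 24 h in each alternative tried. With libraries rescaled it was 14.6% against 8.35% lower at 6 h, with 9.83% of all genes tested, and 16.9% against 10.0% at 24 h, with 9.14% of all. With the other untreated library it was 31.6% against 25.2% at 6 h, with 23.8% of all, and 18.8% against 9.59% at 24 h, with 11.7% of all. The close set was above the background each time, while the far set was above it in some and below it in others. The sets shared 157 tested genes, and without them the shares were 29.4% against 15.5% at 6 h and 18.3% against 9.05% at 24 h. The genes of the close set also had more RNA, with a median of 12.0 RPKM in untreated cells of the 1 to 12 h course against 6.24 RPKM in the far set. The part of RNA level in these shares was not tested.

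**Figure D4:**
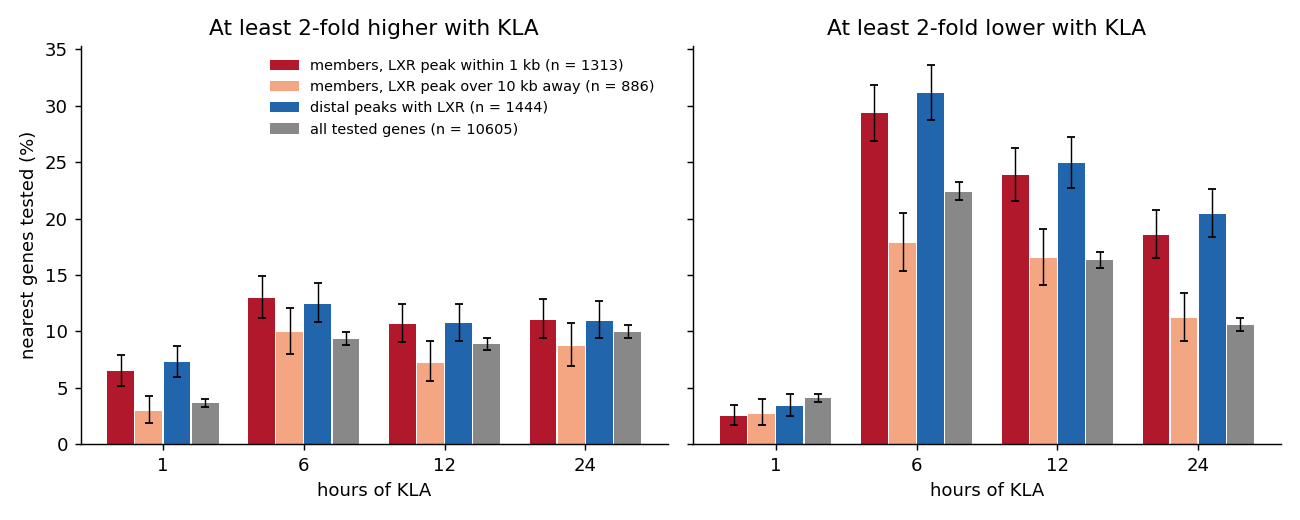
Percentage of nearest genes at least 2-fold higher (left) or lower (right) with KLA than in untreated cells, by hours of KLA, for members with an LXR peak within 1 kb, members over 10 kb from an LXR peak, distal peaks with LXR and all genes tested; 1 library a side, bars with 95% exact binomial intervals for counting error. At 24 h the shares of lower genes are 18.6%, 11.2%, 20.4% and 10.6%.

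Inflammatory genes with a member nearby were mostly higher with KLA, as were those without one. Of the 18 with a member, 15 passed the 2-fold limit upwards after 1 h of KLA, 17 after 6 h and 13 after both 12 and 24 h, and none was lower. Among the 26 tested inflammatory genes that were not nearest to a member, 22 were higher at 1 h and 24 at each later time. Over all genes tested the shares of higher genes were 3.65%, 9.35%, 8.88% and 9.98% at 1, 6, 12 and 24 h. Tnfaip2, a TNF-induced gene, had the highest peak of the list, with 38.5 tags at chr12:112675583-112675777, 5.19 kb upstream and 101 bases from an LXR peak. Its RNA was 157, 1023, 317 and 251 RPKM in untreated cells and after 1, 6 and 12 h of KLA, and 210 RPKM after 24 h of KLA against 136 RPKM in untreated cells of that course. That is 6.52-fold higher at 1 h (6.14 to 6.92).

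Tnfsf9 had the highest 1 h ratio of RPKM + 1 among the nearest genes. It had 2.95, 1434, 34.3 and 38.2 RPKM in untreated cells and after 1, 6 and 12 h of KLA, and 28.3 RPKM after 24 h of KLA against 0.629 RPKM in untreated cells. The untreated values rest on 8 and 2 reads, and the ratio at 1 h was 486 (246 to 1126). Next at 1 h came Nfkbiz, the chemokine gene Ccl4 and Nfkbia, where Nfkbiz and Nfkbia encode proteins of the IκB family, which bind NF-κB. The members of Nfkbiz, Ccl4 and Nfkbia were low, at 9.43 to 11.9 tags, and those of Nfkbiz lay 123 and 183 kb from its start.

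Interferon response genes followed later. Of 9 with a member, 3 were higher after 1 h of KLA, 8 after both 6 and 12 h and all 9 after 24 h, and none was lower. Among the 22 without one, 9, 22, 21 and 22 were higher at the same times, against 3.65%, 9.35%, 8.88% and 9.98% of all genes tested. Irf7, the transcription factor gene of the interferon loop, had 17.5, 13.9, 699 and 1333 RPKM in untreated cells and after 1, 6 and 12 h of KLA, and 967 RPKM after 24 h of KLA against 10.5 RPKM in untreated cells. Its single member had 11.9 tags, 1.35 kb from the start. Gbp2, a guanylate-binding protein gene, was also highest late, at 1652 RPKM after 24 h of KLA against 17.3 RPKM in untreated cells, beside a member of 7.38 tags.

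Of the 10 LXR targets near members, 2 were at least 2-fold higher and 2 lower at 6 h, against 9.35% and 22.4% of all genes tested. Of the 8 tested without a member, 2 were lower and none higher. The higher ones near members were Tgm2 and Abca1, whose highest members lay 25 and 80 bases from an LXR peak. The lower ones near members were Abcg1, a cholesterol exporter gene, and Mylip, whose product degrades the LDL receptor. After rescaling 3 of the 10 were higher and none lower, against 14.2% and 9.83% of all genes tested. Abca1 had 5.79, 9.34, 13.2 and 15.9 RPKM in untreated cells and after 1, 6 and 12 h of KLA, and 29.8 RPKM after 24 h of KLA against 12.9 RPKM in untreated cells. Abca1 differed by more than 2-fold between the 2 untreated libraries themselves. Against the untreated library of the 24 h course Abca1 was 1.02-fold at 6 h (0.874 to 1.19), while at 24 h it was 2.31-fold higher against that library (2.03 to 2.63) and 5.15-fold higher against the other (4.28 to 6.25). Tgm2, which encodes transglutaminase 2 and had 3 members of up to 18.4 tags, had 21.5, 72.1, 136 and 143 RPKM in the 1 to 12 h course, and 144 RPKM after 24 h of KLA against 21.8 RPKM in untreated cells. Abcg1 had 46.5, 31.3, 17.0 and 15.2 RPKM in that course, and 26.8 RPKM after 24 h of KLA against 52.5 RPKM in untreated cells.

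Genes of lipid storage and of the PPARγ and RXRα receptors carried some of the highest members, and several were lower with KLA from 6 h on. Of 8 tested, 5 were at least 2-fold lower after 6 h of KLA (4 after rescaling), 4 after 12 h and 3 after 24 h. Of the 12 tested genes of the list without a member, 10, 8 and 3 were lower at those times, against 22.4%, 16.3% and 10.6% of all genes tested. The 5 at 6 h were Pparg, Rxra, Plin2, Fabp4 and Fabp5, of which Rxra no longer passed at 12 or 24 h and Fabp5 no longer at 24 h. Pparg, the gene of the fat-sensing receptor PPARγ, had 4 members of 9.84 to 16.4 tags. It had 64.1, 70.2, 5.01 and 2.77 RPKM in untreated cells and after 1, 6 and 12 h of KLA, and 3.59 RPKM after 24 h of KLA against 64.0 RPKM in untreated cells, so that it was 17.8-fold lower at 24 h (10.9 to 31.0). Rxra had 16.8, 13.8, 6.05 and 12.4 RPKM in the 1 to 12 h course, and 11.3 RPKM after 24 h of KLA against 15.9 RPKM in untreated cells, with its lowest value at 6 h, 2.79-fold lower (2.12 to 3.70).

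Fabp5, beside the member of 77.9 tags, had 585, 488, 187 and 230 RPKM in untreated cells and after 1, 6 and 12 h of KLA, and 223 RPKM after 24 h of KLA against 415 RPKM in untreated cells. Its neighbour Fabp4, another fatty acid binding protein gene, first had more RNA and then less, with 834, 1846, 103 and 136 RPKM in the same order, and 74.2 RPKM after 24 h of KLA against 721 RPKM in untreated cells. Plin2, which encodes a coat protein of lipid droplets, had a member of 20.9 tags 1.67 kb from its start. It had 810, 612, 246 and 256 RPKM in the 1 to 12 h course, and 189 RPKM after 24 h of KLA against 547 RPKM in untreated cells. Fabp4 and Hilpda, an inhibitor gene of fat breakdown in droplets, were among the 3 genes of this list that were higher at 1 h, together with the cholesterol 25-hydroxylase gene Ch25h.

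**Figure D5:**
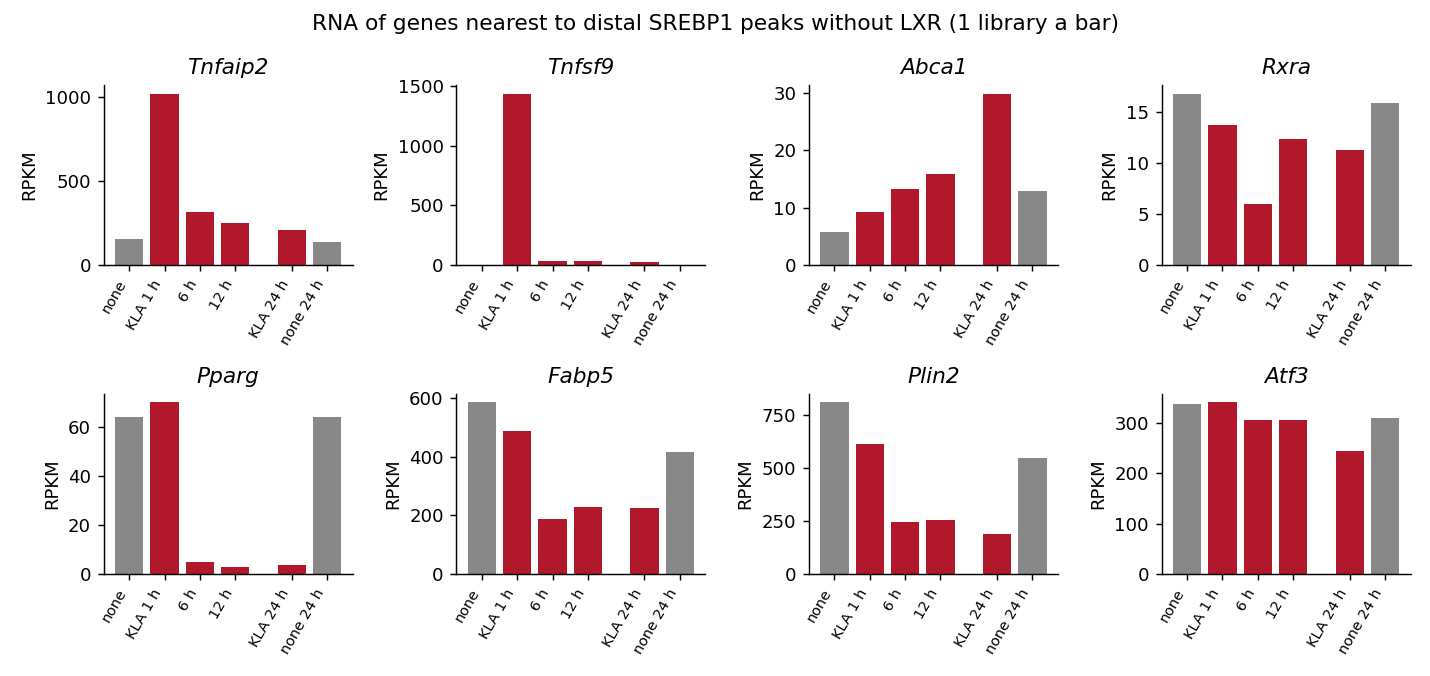
RNA level (RPKM, 1 library a bar) of 8 genes nearest to members, with KLA-treated libraries in red and untreated ones in grey; the 4 bars on the left are the 1 to 12 h course and the 2 on the right the 24 h course. Pparg is at 64.1 and 64.0 RPKM in the untreated libraries and at 5.01, 2.77 and 3.59 RPKM after 6, 12 and 24 h of KLA.

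Genes of lipid synthesis near members showed no common direction. In the cholesterol list, 2 of 7 tested genes were at least 2-fold lower at 6, 12 and 24 h and none was higher, but this depended on scaling, with 1 higher and 1 lower at 6 h and 1 higher and none lower at 12 h after rescaling. Of the 23 tested genes of the list without a member, none was lower at 6 h, 2 at 12 h and 4 at 24 h, where 22.4%, 16.3% and 10.6% of all genes tested were. Dhcr7 and Npc1 were the lower genes at 6 and 12 h, and Dhcr7 and Cyp51 at 24 h. After rescaling, 1 of the 7 was lower at 24 h. Against the other untreated library neither Dhcr7 (log2 ratio -0.571) nor Cyp51 (-0.578) passed at 24 h, and 1 of the 7 was higher and 1 lower. Dhcr7, the last enzyme gene of cholesterol synthesis, had 19.8, 18.8, 4.19 and 7.98 RPKM in untreated cells and after 1, 6 and 12 h of KLA, and 13.0 RPKM after 24 h of KLA against 29.7 RPKM in untreated cells. In the fatty acid list Elovl5 and Lpin1 were lower and Acsl1 higher at 6 and 12 h, and of the 15 tested genes without a member 4 were lower at 6 h and 2 at 12 h. Lpin1, a phosphatidate phosphatase gene, had 12.3, 7.22, 0.538 and 0.298 RPKM, and 0.477 RPKM after 24 h of KLA against 12.8 RPKM in untreated cells. Acsl1, which encodes a fatty acyl-CoA synthetase, had 8.86, 11.2, 44.0 and 96.3 RPKM, and 181 RPKM after 24 h of KLA against 12.1 RPKM in untreated cells.

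Macrophage lineage factors and markers were split. Of the 32 near members, 7 were at least 2-fold higher and 1 lower at 1 h, 5 higher and 9 lower at 6 h, 4 higher and 9 lower at 12 h, and 5 higher and 9 lower at 24 h. Over all genes tested the shares were 3.65% higher and 4.09% lower at 1 h, and 9.35% and 22.4% at 6 h. They were 8.88% higher and 16.3% lower at 12 h, and 9.98% and 10.6% at 24 h. The 5 tested genes of the list without a member had 4 higher and none lower at 6 and 12 h, and 3 higher and none lower at 24 h. After rescaling the 6 h count near members was 8 higher and 5 lower, against 14.2% and 9.83% of all genes tested. Cebpa, the gene of the myeloid lineage factor C/EBPα, had 78.6, 27.5, 7.36 and 25.3 RPKM in untreated cells and after 1, 6 and 12 h of KLA, and 26.7 RPKM after 24 h of KLA against 59.4 RPKM in untreated cells. Emr1, which encodes the F4/80 antigen, was higher instead, at 357 RPKM after 24 h of KLA against 74.5 RPKM in untreated cells, 4.79-fold higher (4.39 to 5.23). Atf3, with its 6 members, had 245 to 341 RPKM in all 6 libraries and passed the 2-fold limit at no time. Zeb2, a transcription factor gene with 7 members, and Foxp1, with 8, did not pass it against the untreated library of their own course either, and Zeb2 had 21.3 to 53.3 RPKM over the 6 libraries.

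Apart from Tnfsf9, whose member had 25.4 tags, the genes with the 4 highest and the 4 lowest ratios at each time had members of at most 16.4 tags. The largest falls at 6 h included the chemokine receptor gene Cxcr4, with 3 members of up to 13.1 tags. Cxcr4 had 124, 50.6, 2.79 and 6.99 RPKM in untreated cells and after 1, 6 and 12 h of KLA, and 5.98 RPKM after 24 h of KLA against 89.5 RPKM in untreated cells, 44.5-fold lower at 6 h (25.2 to 86.7). At 24 h the lowest ratio was that of Mamdc2, with 4.15 RPKM after KLA against 263 RPKM in untreated cells, 63.4-fold lower (45.8 to 90.2), near a member of 8.61 tags 71.3 kb from its start. The highest at 24 h was Fpr2, a formyl peptide receptor gene, with 417 RPKM after KLA against 1.49 RPKM, or 5 reads, in untreated cells, and its member had 12.7 tags. Il6, Nos2 and Edn1 were also among the highest, each with 4 or fewer reads in an untreated library and with members of at most 11.9 tags, the nearest of which lay 30.0 to 66.3 kb from their starts.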

How the data were processed

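Peak lists of SREBP1 and LXR and 6 poly(A) RNA libraries were used, 8 of 103 samples, grouped by their titles. The members, gene lists and tests were chosen with earlier results of these data known.

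HOMER called the peaks, per the file headers, with a false discovery rate of 0.001, a Poisson p-value of 1.00e-04 and an excess of 4-fold over both the input and the 10000 bases around a peak. Normalised tag counts are signals that the authors scaled to 1e+07 tags a library. Fold over input and over surroundings is a ratio from the authors' peak caller, and its score was deposited too. RPKM values and transcript lengths were deposited by the authors. The submitters' processing notes name Bowtie 0.12.7, STAR, HOMER and mm9, without roles. The sources used here do not give strand use in counting, so overlapping genes, antisense genes and near-identical copies are uncertain, nor do they give the samples pooled in the combined SREBP1 list.

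Each peak centre was assigned to the nearest transcript start, and each gene was represented by its transcript of highest mean RPKM. Reads were recovered from RPKM, length and a library total, and about 99.97% of values were whole within 0.01 read. At these depths 1 read in 1 kb is worth 0.374 to 0.453 RPKM, and a count of 0 allows 1.12 to 1.36 RPKM (3 reads). Intervals are 95% exact (Clopper-Pearson) and cover counting error only. With 1 library a side there is no test; the call is a 2-fold difference of RPKM + 1. Scripts (Python 3.11.15, numpy 2.4.6, pandas 2.3.3, scipy 1.17.1) were tested on simulated data. Named were the 10 highest members, those nearest the limits of the rule, up to 5 peaks for each of 7 gene lists, the genes with most members and the 4 highest and 4 lowest ratios at each time among genes with at least 10 reads. Genes named for clusters of members, for a peak inside them (Spi1) or for the RNA of a list outside this rule were chosen after their values were seen. A motif search was planned and not run, since no mm9 genome was used here; for the same reason no peak sequence is printed. Alternatives changed the distance limit, the overlap, the fold over input, the pseudocount, the filter, the scaling, the transcript and the untreated library. Results for 2 list genes are not reported here.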

Additional observations from a re-analysis of the deposited data

How the results depend on the processing

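Of 104 alternatives, 88 kept the value near its main one and 16 moved it. With SREBP1 peaks at least 8-fold over input, 35.6% of members lay above the median of distal peaks with LXR, and with the limit at 2 kb, 55.4% of members were inside a transcript. At 1 h of KLA the nearest genes at least 2-fold lower were 167 with a pseudocount of 0.1 and 34 with 3, against 87. As shares these were 5.99% and 1.22%, against 8.30% and 1.20% of all genes tested. The main share was 3.12% against 4.09% of all, so with a pseudocount of 3 it was no longer below the background. With a pseudocount of 3 the lower genes were 430 at 6 h (15.4%, against 12.9% of all) and 343 at 12 h (12.3%, against 8.68%). After rescaling to a median of 0, 500 (17.9%) were higher and 317 (11.4%) lower at 6 h, against 14.2% and 9.83% of all. At 12 h 326 (11.7%) were lower, against 8.73% of all. Rescaling gave 14.6% lower genes at 6 h for members within 1 kb of LXR and 8.35% for members over 10 kb away, the other untreated library gave 25.2% for the second set at 6 h, and leaving out genes of both sets gave 9.05% for it at 24 h. Leaving out genes of distal peaks with LXR gave 26.1% for the first set and 15.4% for the second at 6 h, and 15.2% for the first at 24 h. The cause was not tested. The alternatives without the 6 peaks inside Vdr, with touching peaks counted as not shared, and on the sets by LXR distance were chosen after seeing the data. The comparison of RNA between the sets by LXR distance was itself not among the planned ones. No paired analysis was possible because each group is 1 list or 1 library, and for the same reason no replicate could be left out. The depth limits low genes most, since about 1 RPKM is 2 or 3 reads in a transcript of 1 kb, and a median member rests on about 26.1 tags.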
